A study of Mus musculus with 18 samples.

Results

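The comparison described here sets myeloid-biased multipotent progenitors (MPP3) of Helios KO mice against MPP3 of WT mice. Of the 18 libraries of the series, 6 belong to it, 3 MPP3 KO and 3 MPP3 WT, and every gene of the table was compared as KO over WT. The cells were sorted from bone marrow of mice aged 10 weeks as Lin-Sca1+ckit+CD48+CD150-Flt3- cells. The other 12 libraries hold long-term haematopoietic stem cells (LT-HSC) and the Flt3+ progenitors MPP4 of the same 3 KO and 3 WT mice, and they share the fit's estimate of the spread and give the comparisons with other populations below. The labels do not say which exons the KO allele lacks or which cells carry the deletion, and they name no treatment.

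Helios, encoded by Ikzf2, belongs to the Ikaros family of zinc finger transcription factors. Members bind DNA as dimers and work with the chromatin remodelling complex NuRD, and Ikaros itself is needed for lymphoid development. MPP3 lie below the stem cells and give mainly granulocytes and macrophages, while MPP4 lean towards lymphocytes and stem cells share many transcripts with megakaryocytes, the cells that shed platelets.

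Read counts were scaled to CPM, counts relative to library size, and tested with edgeR's quasi-likelihood test over 16325 genes, with Benjamini-Hochberg adjusted p-values and a threshold of 0.05. CPM is not corrected for gene length, so the levels below compare libraries and not genes. Totals ran from 26107781 to 29613609 reads in MPP3 KO and from 23995247 to 27711201 in MPP3 WT. No molecular identifiers were used, so floors and limits given below cover counting error only. In sorted populations fewer cells of a type and less RNA per cell cannot be told apart.

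Most defining markers of the label held against WT LT-HSC, and they were divided against WT MPP4. Mpo, the myeloperoxidase of myeloid granules, stood at 3222 ± 1305 CPM in MPP3 KO and 3631 ± 877 CPM in MPP3 WT (SD, n = 3 each), against 47.6 CPM in WT LT-HSC. Cd48 stood at 305 ± 55.9 CPM in MPP3 KO and 313 ± 10.3 CPM in MPP3 WT, and Slamf1, which encodes CD150, at 4.73 and 5.66 CPM. Flt3 transcript was present in the Flt3-negative gate, at 678 ± 108 CPM in MPP3 KO and 786 ± 88.9 CPM in MPP3 WT, and was lower than in WT MPP4 (log2 -2.06 for WT MPP3 over WT MPP4, edgeR adjusted p = 6.49e-06). For WT MPP3 over WT MPP4, the granule gene Elane was at log2 5.92 and Mpo at 1.66 (edgeR adjusted p = 0.0207 and 0.311). Csf1r, Cebpa and Cd48 were at log2 -1.46, -0.17 and 0.14 in that comparison (edgeR adjusted p = 0.389, 0.935 and 0.958). Hlf, a stem cell gene, was at 321 CPM in WT MPP3 and 482 CPM in WT LT-HSC (log2 -0.59, edgeR adjusted p = 0.161). None of the 6 genes of the sorting gates had KO libraries clear of the WT libraries, against 10.6% of all genes. Of the 6, 5 had a log2 fold change below 0 in MPP3 KO over WT (median -0.12).

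Some libraries stood apart from the others within their group. Immunoglobulin gene segments summed to 3844, 130 and 110 CPM in MPP3 KO 1, 2 and 3 and to 4561, 4828 and 191 CPM in MPP3 WT 1, 2 and 3. High sums thus fell in 1 KO and 2 WT libraries, and Jchain, the joining chain of secreted antibodies, was high in the same 3 (151, 4.57 and 12.7 CPM in MPP3 KO and 249, 243 and 2.02 CPM in MPP3 WT). The library numbered 1 of each genotype also held fewer genes with a read (18896 in MPP3 KO and 18578 in MPP3 WT, against 19520 to 20070 in the other 4). T and NK cell markers were lower throughout in KO: their sums were 29.2, 20.7 and 22 CPM in MPP3 KO and 37.0, 41.8 and 33.1 CPM in MPP3 WT. Macrophage and dendritic cell markers summed to 93.4 to 234 CPM in MPP3 KO and 120 to 314 CPM in MPP3 WT, with overlap.

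**Figure D1:**
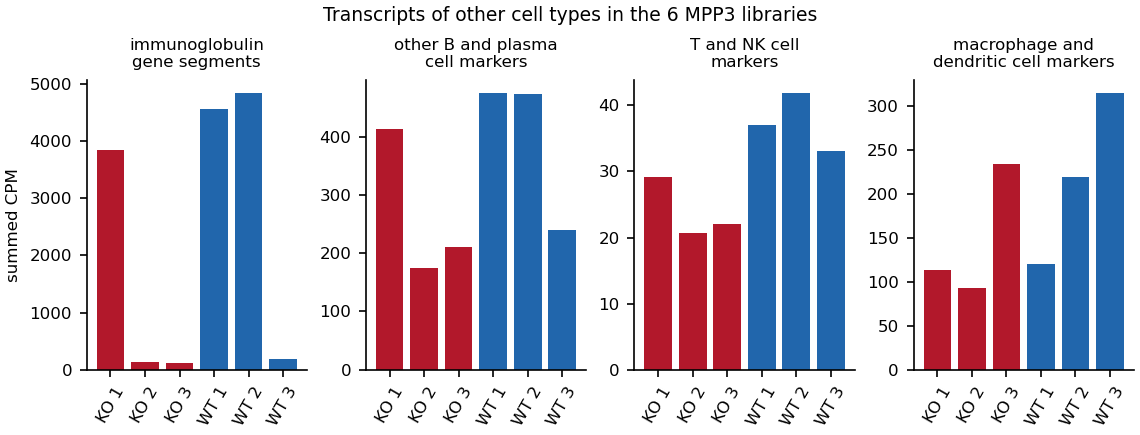
Summed CPM of immunoglobulin gene segments, of the other B and plasma cell markers, of T and NK cell markers and of macrophage and dendritic cell markers in each MPP3 library (red, KO; blue, WT). Immunoglobulin transcripts were at 3844 CPM or more in KO 1, WT 1 and WT 2 and were at most 191 CPM in the other 3 libraries, and only the T and NK sums, from 20.7 to 29.2 CPM in KO and from 33.1 to 41.8 CPM in WT, did not overlap between the genotypes.

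The deleted gene was lower in KO, with reads remaining. Ikzf2 (ENSMUSG00000025997, chr1:69531214-69687245, mm10) had 19.0, 19.0 and 23.9 CPM in MPP3 KO and 42.6, 65.6 and 38.3 CPM in MPP3 WT. No KO library overlapped a WT library. The log2 fold change was -1.24 ± 0.32 (SE), or 0.424-fold, with an edgeR adjusted p of 0.66, a DESeq2 adjusted p of 0.0563, and 0.0487 in the authors' deposited table. Reads of exons that the allele keeps would be counted here, so the remaining level does not measure Helios protein.

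One gene rose and none fell past the threshold. Wdfy1 (ENSMUSG00000073643, chr1:79702262-79776143, mm10) encodes an endosomal adaptor of Toll-like receptors 3 and 4. It had 108, 111 and 94.0 CPM in MPP3 KO and 5.79, 14.0 and 7.48 CPM in MPP3 WT, so that every KO library lay several-fold above every WT library. The rise was 11.5-fold, a log2 fold change of 3.53 ± 0.35 (edgeR adjusted p = 0.000392). At the positions the deposited table gives, Wdfy1 and the neighbouring gene Mrpl44 share the stretch from 79776018 to 79776143 on chromosome 1. The sources used here do not say whether the counting used strand, so reads of the shared stretch cannot be told apart. Mrpl44, a mitochondrial ribosomal protein gene, had a log2 fold change of -0.26 ± 0.10. Without the 3 libraries rich in immunoglobulin transcripts, which leaves 2 KO libraries and 1 WT library, the log2 fold change of Wdfy1 was 3.77 and its edgeR adjusted p 0.0593. This single call is 0.00613% of the genes tested.

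Below the adjusted threshold, more genes were lower than higher by edgeR. At an unadjusted p under 0.05, 274 genes were higher (1.68% of the genes tested) and 476 lower (2.92%). Together these are 4.59%, no larger a share than that threshold admits when no gene differs. KO and WT libraries did not overlap for 818 higher genes (5.01%) and 918 lower genes (5.62%). DESeq2 passed 18 higher and 17 lower genes (0.214% of those tested), 0.11% higher and 0.104% lower. Not all of them were clear of overlap. Among the higher ones, Tmem132b had 0, 0 and 1.12 CPM and Neo1 2.04, 0 and 0.67 CPM in MPP3 KO. Gm8730, a copy of the ribosomal gene Rplp0, had 0.35, 75.7 and 40.9 CPM in MPP3 KO. Among the lower ones, Evc2 had 0.07, 0 and 0.04 CPM in MPP3 KO and 0.04, 0.46 and 1.41 CPM in MPP3 WT. Limma voom, in which the mouse was a random effect, passed Wdfy1 and the lower gene Dock10 (0.0123%). The authors' deposited table held 11 higher and 23 lower genes at an adjusted p under 0.05 (0.0786% and 0.164% of 13996, 0.243% together), of which 25 were also among the DESeq2 calls, 73.5% of their list and 71.4% of the DESeq2 list. Of these 34 genes, 4 were immunoglobulin segments.

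Among the 12 higher genes with the smallest p after Wdfy1, the KO and WT libraries did not overlap by the rule that chose them, and none passed edgeR's threshold. Aldh1a1, an enzyme that makes retinoic acid, had 23.4, 17.5 and 19.2 CPM in MPP3 KO and 6.74, 7.09 and 4.48 CPM in MPP3 WT. Its fold change was 3.29 (log2 1.72 ± 0.34, edgeR adjusted p = 0.494, DESeq2 adjusted p = 0.00128). Itgb6, the integrin subunit that pairs with the alpha v chain to activate latent TGF-beta, had 5.92, 5.44 and 4.34 CPM in MPP3 KO and 1.54, 0.55 and 0.43 CPM in MPP3 WT. These were low levels in both genotypes, with a log2 fold change of 2.64 ± 0.55 (edgeR adjusted p = 0.495, DESeq2 adjusted p = 0.00417).

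Selp, which encodes the platelet and endothelial adhesion molecule P-selectin, had 303, 221 and 184 CPM in MPP3 KO and 79.2, 99.4 and 113 CPM in MPP3 WT. The lowest KO library was well above the highest WT library, and the fold change was 2.43 (log2 1.28 ± 0.33, edgeR adjusted p = 0.66, DESeq2 adjusted p = 0.0329). The deubiquitinase gene Usp37 had 102, 123 and 117 CPM in MPP3 KO and 61.0, 69.7 and 63.1 CPM in MPP3 WT (log2 0.82 ± 0.17, DESeq2 adjusted p = 0.00651). Smaller differences with tight replicates were seen for the alpha tubulin gene Tuba1c, at 39.2, 39.9 and 37.1 CPM in MPP3 KO and 29.0, 26.8 and 28.5 CPM in MPP3 WT. Its log2 fold change was 0.46 ± 0.12 (edgeR adjusted p = 0.622, DESeq2 adjusted p = 0.0131).

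The remaining higher genes of this set spanned log2 fold changes of 0.39 to 0.65. They were Zfp385a, a zinc finger protein (0.59), Cptp, a transfer protein for ceramide-1-phosphate (0.56), the fructose-phosphorylating enzyme Khk (0.53), Hddc2 (0.48), the pyrimidine nucleotidase Nt5c3 (0.39) and 2 cytokine receptors, Il11ra1 (0.43) and Il17re (0.65). Of these, Zfp385a and Cptp passed DESeq2 (adjusted p = 0.0131 and 0.017), and the others did not.

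The 12 lower genes chosen in the same way included an exchange factor for small GTPases near Ikzf2. Dock10, which activates Cdc42 and Rac and is expressed in B and T cells, had 311, 409 and 351 CPM in MPP3 KO and 642, 529 and 565 CPM in MPP3 WT. It was lower in all KO libraries, 0.617-fold (log2 -0.70 ± 0.12, edgeR adjusted p = 0.192, DESeq2 adjusted p = 0.000104, limma voom adjusted p = 0.0438).

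A pair of lower genes encodes subunits of the intraflagellar transport trains that build cilia. Ift172 had 29.0, 46.9 and 36.4 CPM in MPP3 KO and 59.0, 75.4 and 64.2 CPM in MPP3 WT, a log2 fold change of -0.82 ± 0.18 (DESeq2 adjusted p = 0.0116). Wdr35 had 4.12, 1.98 and 3.56 CPM in MPP3 KO and 12.3, 7.68 and 8.32 CPM in MPP3 WT (log2 -1.55 ± 0.32, DESeq2 adjusted p = 0.00417). Neither passed edgeR (adjusted p = 0.495 and 0.494 in that order), and neither overlapped between the genotypes, by the rule that chose them.

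Sdc1 encodes syndecan-1, the surface proteoglycan used as the plasma cell marker CD138. It had 13.4, 5.90 and 5.5 CPM in MPP3 KO and 21.3, 14.0 and 22.4 CPM in MPP3 WT (log2 -1.22 ± 0.27, edgeR adjusted p = 0.495). Among the KO libraries it was highest in KO 1, which is rich in immunoglobulin transcripts, and among the WT libraries it was highest in WT 3, which is not. The part of plasma cells in this difference was not tested. Without KO 1, the KO library rich in immunoglobulin transcripts, the log2 fold change was -1.76 (edgeR adjusted p = 0.00382), and without all 3 such libraries it was -1.98 (edgeR adjusted p = 0.00675).

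The other lower genes ranged from Clec2i, a C-type lectin that is a ligand of NK cell receptors, at log2 -2.30 ± 0.51 with 0.97, 1.41 and 0.86 CPM in MPP3 KO and 3.98, 3.02 and 8.97 CPM in MPP3 WT, to Itpk1, an inositol phosphate kinase, at log2 -0.40 ± 0.10. Between them lay the protein kinase C gene Prkcb (-1.75), the mannose-6-phosphate receptor gene Igf2r (-0.92), the endocytic scaffold gene Itsn2 (-0.59), the splicing regulator gene Rbm5 (-0.48) and the ubiquitin ligase gene Ubr2 (-0.46). All of these but Itpk1 passed DESeq2 (adjusted p = 0.0115 for Clec2i, 0.0208 for Prkcb, 0.0329 for Igf2r, 0.0134 for Itsn2, 0.0118 for Rbm5 and 0.0467 for Ubr2).

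**Figure D2:**
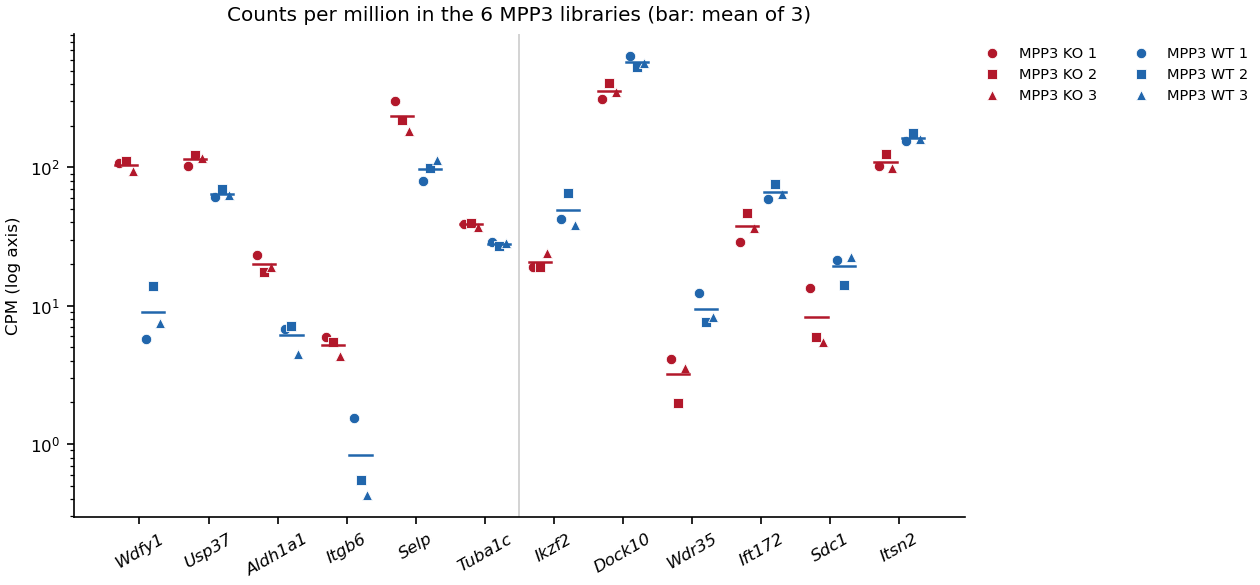
CPM on a log axis in the 3 MPP3 KO (red) and 3 MPP3 WT (blue) libraries for 6 higher and 6 lower genes; symbols mark the library number and bars the mean of 3. For Wdfy1 the KO libraries lie between 94.0 and 111 CPM and the WT libraries between 5.79 and 14.0 CPM, a wider gap than for any other gene drawn.

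Wdfy1, Dock10, Selp and Tuba1c passed DESeq2 in MPP3 and also passed edgeR in LT-HSC or MPP4. The promoters of Dock10, Tuba1c and Selp are shown because a DNA-binding factor is what the KO mice lack. Ikaros-family zinc fingers bind sites with the core GGGAA. The sequences are those of RefSeq (GRCm38.p6), 300 bases from 250 before to 50 after the annotated start, written 5′ to 3′ along the gene, with GGGAA in capitals; its reverse complement TTCCC was searched too and was found in none of the 3.
Dock10 (chr1:80758504-80758803, minus strand): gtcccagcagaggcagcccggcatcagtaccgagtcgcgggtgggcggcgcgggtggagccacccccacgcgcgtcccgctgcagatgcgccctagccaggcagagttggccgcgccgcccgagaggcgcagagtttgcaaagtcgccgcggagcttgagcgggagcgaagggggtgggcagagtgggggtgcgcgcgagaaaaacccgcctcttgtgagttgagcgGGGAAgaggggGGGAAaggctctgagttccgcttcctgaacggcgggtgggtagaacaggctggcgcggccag
Tuba1c (chr15:99029641-99029940, plus strand): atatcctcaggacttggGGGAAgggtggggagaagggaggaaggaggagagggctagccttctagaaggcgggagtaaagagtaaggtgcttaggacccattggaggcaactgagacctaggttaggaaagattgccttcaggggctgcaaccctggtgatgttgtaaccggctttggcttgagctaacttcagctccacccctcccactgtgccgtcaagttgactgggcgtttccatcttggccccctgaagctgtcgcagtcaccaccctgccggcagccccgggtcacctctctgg
Selp (chr1:164115014-164115313, plus strand): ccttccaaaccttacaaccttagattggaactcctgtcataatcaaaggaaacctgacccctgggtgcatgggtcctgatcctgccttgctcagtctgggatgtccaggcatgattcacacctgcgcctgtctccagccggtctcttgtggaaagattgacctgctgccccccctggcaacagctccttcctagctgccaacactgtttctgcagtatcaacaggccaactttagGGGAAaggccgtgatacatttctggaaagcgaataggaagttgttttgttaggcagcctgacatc
Dock10 held the motif 2 times and Tuba1c and Selp 1 time each. On either strand 62.7% of the 32851 promoters of that table hold it at least once, so its presence does not set these genes apart.

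The genes around Ikzf2 on chromosome 1 were examined because 3 of the genes above, Wdfy1, Usp37 and Dock10, lie there. Within 12 Mb of Ikzf2, 153 genes were tested; 16 of them (10.5%) had an unadjusted edgeR p under 0.05, 4 higher and 12 lower, against 4.59% of all genes. KO and WT libraries did not overlap for 27 of the 153 (17.6%), against 10.6% of all genes. These counts include the genes for which the region was examined: without Ikzf2 and the genes there that were chosen above by their p, 5 in all, 11 of 148 (7.43%) had an unadjusted p under 0.05 and 22 (14.9%) did not overlap. Genes at an unadjusted p under 0.01 included Ikzf2 itself, Trak2, an adaptor of mitochondrial transport, at -10.6 Mb, Usp37 at 4.75 Mb, Wdfy1 at 10 Mb and Dock10 at 10.8 Mb. Trak2 was at 36.02, 29.99 and 28.3 CPM in MPP3 KO and 46.3, 53.8 and 45.9 CPM in MPP3 WT (log2 -0.63 ± 0.20, edgeR adjusted p = 0.895). The sources used here do not give the strain of the mice or of the cells in which the allele was made, and the deleted gene, its neighbourhood and the genotype cannot be told apart by this design.

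**Figure D3:**
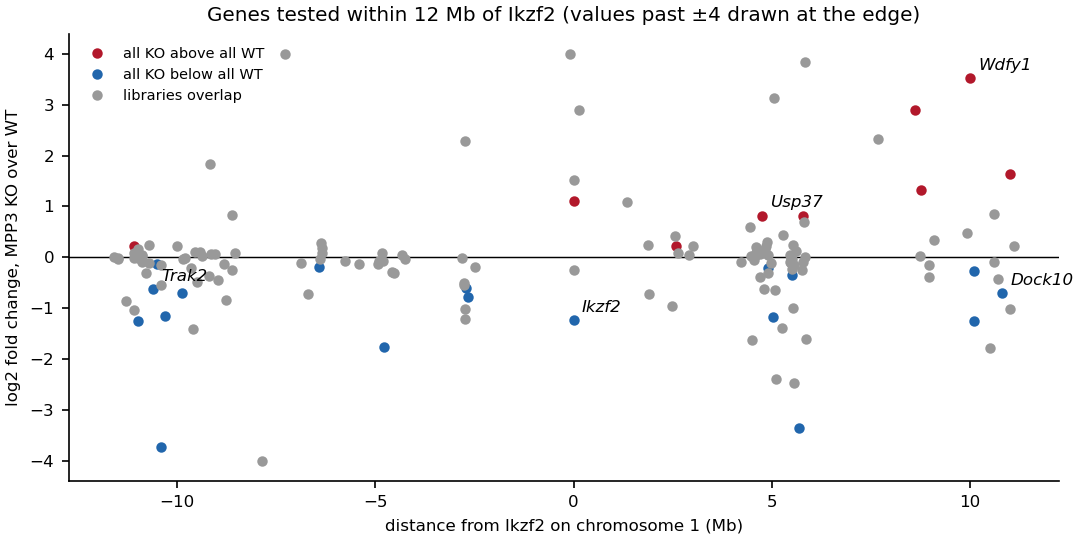
Log2 fold change of MPP3 KO over WT for the 153 genes tested within 12 Mb of Ikzf2, against distance from Ikzf2 in Mb; red, all KO libraries above all WT; blue, all KO below all WT; grey, overlapping. Genes clear of overlap lie on both sides of Ikzf2, and Wdfy1, at 10 Mb, has a log2 fold change of 3.53.

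Most megakaryocyte and platelet genes stood above 0. Of 48 listed, 45 were tested; 36 had a positive log2 fold change and 9 a negative one, with a median of 0.35, against 8268 positive, 7966 negative and a median of 0.00 over all genes tested. None passed edgeR's threshold, 10 were higher and 2 lower at an unadjusted p under 0.05 (1.68% and 2.92% of all genes), and the KO libraries were clear of the WT libraries for 9 higher and 3 lower members, 26.7% of the list (5.01% and 5.62% of all genes, 10.6% together). Without WT 3 the median was 0.21, with 31 members above 0, and without the 3 libraries rich in immunoglobulin transcripts it was 0.48.

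Selp, given above, had the smallest p of the list. After it, the member with the smallest p was the tetraspanin Cd9, at 121, 113 and 106 CPM in MPP3 KO and 79.7, 76.4 and 67.0 CPM in MPP3 WT, with no overlap (log2 0.61 ± 0.19, edgeR adjusted p = 0.895). Named after their values were seen, the lipid transporter Mfsd2b had 154, 93.7 and 96.4 CPM in MPP3 KO and 76.8, 40.4 and 38.0 CPM in MPP3 WT (log2 1.15 ± 0.38), and the von Willebrand receptor subunit Gp9 had 17.6, 27.1 and 23.2 CPM in MPP3 KO and 13.5, 13.3 and 13.6 CPM in MPP3 WT (log2 0.75 ± 0.26). Both were clear of overlap. Vwf, von Willebrand factor, and the platelet chemokine Pf4, also named after their values were seen, overlapped: Vwf had 58.4, 25.2 and 22.4 CPM in MPP3 KO and 30.5, 10.3 and 13.8 CPM in MPP3 WT (log2 0.96 ± 0.37). Pf4 had 17.5, 11.6 and 8.98 CPM in MPP3 KO and 8.98, 2.22 and 2.31 CPM in MPP3 WT (log2 1.5 ± 0.54). For both, the library numbered 1 was the highest of its genotype. The log2 fold change of Vwf was 0.39 without KO 1 and 1.55 without WT 1, and that of Pf4 was 1.17 without WT 2 and 2.48 without WT 1.

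The secreted platelet proteins Thbs1 (thrombospondin 1) and F5 (coagulation factor V) went the other way. Thbs1 had 1.49, 11.2 and 2.54 CPM in MPP3 KO and 8.15, 39.5 and 28.6 CPM in MPP3 WT (log2 -2.33 ± 0.91, edgeR adjusted p = 1). F5 had 6.33, 2.47 and 1.42 CPM in MPP3 KO and 5.59, 7.13 and 11.2 CPM in MPP3 WT (log2 -1.22 ± 0.55, edgeR adjusted p = 1), and libraries of both genes overlapped between the genotypes. The 3 members with all KO libraries below all WT libraries, named after their values were seen, were the protease inhibitor Serpine2 (log2 -1.26 ± 0.75), the platelet tubulin Tubb1 (-1.89 ± 1.29, at most 1.63 CPM in any MPP3 library) and the ATP receptor P2rx1 (-0.17 ± 0.18).

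Lymphoid priming genes stood mostly below 0. Of 44 listed, 39 were tested; 6 were above 0 and 33 below, with a median of -0.21 and none past edgeR's threshold. At an unadjusted p under 0.05, 6 were lower and 0 higher (2.92% and 1.68% of all genes). The KO libraries were clear below the WT libraries for 9 members and clear above for 1 (5.62% and 5.01% of all genes). Without WT 1 the count at that p was 2, and without KO 3 it was 3. T and NK cell markers moved with this list: 10 of their 12 tested members were below 0, with a median of -1.02 that was -1.52 without KO 1, -0.66 without KO 2 and -0.53 without the 3 libraries rich in immunoglobulin transcripts. Trbc1, a constant segment of the T cell receptor beta chain, had 3.77, 1.10 and 1.65 CPM in MPP3 KO and 6.66, 6.51 and 7.01 CPM in MPP3 WT (log2 -1.63 ± 0.93, edgeR adjusted p = 1). Eomes, a transcription factor of NK and T cells, had 0.17, 0.23 and 0.07 CPM in MPP3 KO and 2.99, 4.74 and 1.37 CPM in MPP3 WT (log2 -4.22 ± 1.18, edgeR adjusted p = 0.775, and an adjusted p of 3.55e-05 in the authors' deposited table). Both were clear of overlap, while Cd3e, Cd3d, Cd3g and Trac of the T cell receptor complex were at or under 0.47 CPM in every MPP3 library. The 2 members above 0 were Klrb1c (log2 0.25 ± 0.54) and Cd4 (log2 0.17 ± 0.39), and both overlapped. Of 19 B and plasma cell markers 15 were below 0, with a median of -0.61 that was -1.76 without KO 1, -1.02 without WT 3, -0.34 without KO 2, -0.27 without KO 3, -0.23 without WT 1 and 0.15 without the 3 libraries rich in immunoglobulin transcripts. The part of these cells in the lymphoid values was not tested.

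Genes of the earliest lymphoid steps were low in both genotypes. Rag1, the recombinase that assembles antigen receptor genes, had no read in any MPP3 KO library and 0.55, 0.76 and 0 CPM in MPP3 WT, or 32 reads, so it was at least 11.4-fold lower in KO, with a floor of 3 reads over the KO group (edgeR adjusted p = 0.66). All of its reads came from WT 1 and WT 2, the WT libraries rich in immunoglobulin transcripts, and WT 3 had none, so without these libraries no difference can be given. Il7r, the interleukin 7 receptor, had 1.97, 0.04 and 3.33 CPM in MPP3 KO and 11.8, 6.80 and 4.34 CPM in MPP3 WT, without overlap (log2 -2.10 ± 0.89, edgeR adjusted p = 1). With genes at 0 reads in one genotype placed at their bound, the median of the list was again -0.21.

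Members with more reads also stood below WT. Satb1, a chromatin organiser of lymphoid progenitors, had 80.9, 88.3 and 84.9 CPM in MPP3 KO and 139, 105 and 127 CPM in MPP3 WT (log2 -0.55 ± 0.26). The T cell factor gene Tcf7 had 22.3, 11.4 and 9.09 CPM in MPP3 KO and 50.9, 27.8 and 36.7 CPM in MPP3 WT (log2 -1.43 ± 0.75). Satb1 and Tcf7 were named after their values were seen, and both were clear of overlap.

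Others of the list, Dntt and Ighm named after their values were seen, overlapped or stood higher. Dntt, the terminal transferase of early lymphocytes, had 116, 67.7 and 87.3 CPM in MPP3 KO and 145, 94.1 and 153 CPM in MPP3 WT (log2 -0.53 ± 0.52). Ighm, the immunoglobulin mu chain gene, ran with the immunoglobulin libraries, at 1559, 71.8 and 50 CPM in MPP3 KO and 1942, 2431 and 150 CPM in MPP3 WT. Cnn3, which encodes an actin-binding calponin, was the 1 member clear above WT (log2 0.38 ± 0.25), and Ikzf1, which encodes Ikaros, stood at 212 ± 22.2 CPM in MPP3 KO and 197 ± 12.1 CPM in MPP3 WT (log2 0.11 ± 0.10, edgeR adjusted p = 1).

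**Figure D4:**
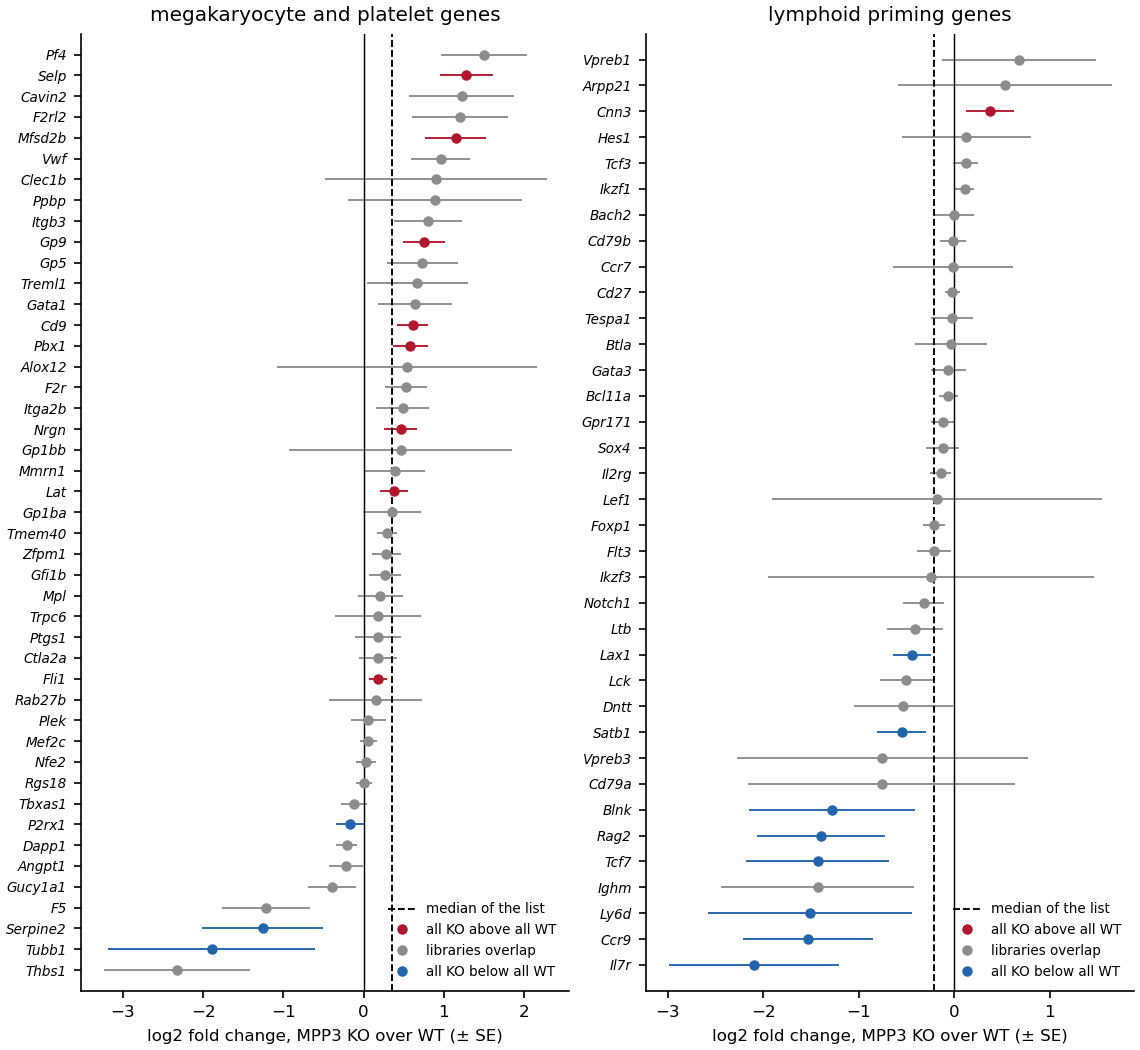
Log2 fold change of MPP3 KO over WT with its SE for the megakaryocyte and platelet genes (left) and the lymphoid priming genes (right); members with no read in one genotype and 1 lymphoid member not reported here are not drawn, and dashed lines are list medians (0.35 and -0.21). Red marks members with all KO libraries above all WT libraries, blue those with all KO below all WT, and no member passed the adjusted threshold.

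A broader view came from genes that separate the WT stem cells from the WT lymphoid-biased progenitors, 2 lists defined without any MPP3 library but from the same WT mice. Of 1329 genes higher in WT LT-HSC than in WT MPP4, 717 were above 0 and 584 below in MPP3 KO over WT (median 0.05, and -0.01 without KO 2), with 75 higher and 46 lower at an unadjusted p under 0.05. These are to be read against 1.68% and 2.92% of all genes, and 120 members were clear above WT and 65 clear below, 13.9% in all. Of 845 genes higher in WT MPP4 than in WT LT-HSC, 332 were above 0 and 508 below (median -0.11), with 5 higher and 61 lower. The second list was clear below WT for 112 members and clear above for 30, 16.8% in all, against 10.6% of all genes. None of either list passed edgeR's threshold.

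Myeloid genes, which define MPP3, lay on both sides of 0. Of 17 primary granule genes 9 were above 0 and 8 below (median 0.06), and of 27 myeloid transcription factors and receptors 15 were above and 12 below (median 0.03). Without KO 1 these medians were -0.22 and -0.17, without WT 1 -0.05 and -0.09, and without the 3 libraries rich in immunoglobulin transcripts -0.39 and -0.42. Only Srgn, the granule proteoglycan serglycin, was clear of overlap among the granule genes (5.88% of the list, against 10.6% of all genes). It had 762, 740 and 829 CPM in MPP3 KO and 617, 717 and 700 CPM in MPP3 WT (log2 0.20 ± 0.09, edgeR adjusted p = 1). Mpo varied within each genotype from 1849 to 4447 CPM in MPP3 KO and from 2624 to 4224 CPM in MPP3 WT (log2 -0.17 ± 0.73), and its direction turned without KO 2, to a log2 fold change of 0.11. Gfi1, a repressor needed for granulocytes, had 45.3, 43.2 and 55.2 CPM in MPP3 KO and 32.5, 27.9 and 47.2 CPM in MPP3 WT (log2 0.42 ± 0.28).

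Erythroid genes lay on both sides of 0. Of 26 tested, 10 were above 0 and 16 below (median -0.21, from -0.41 without KO 2 to -0.05 without WT 2). The transcription factor Tal1, which megakaryocytes share, was clear above WT, at 57.9, 52.9 and 49.5 CPM in MPP3 KO and 41.5, 41.9 and 33.9 CPM in MPP3 WT (log2 0.45 ± 0.14, edgeR adjusted p = 0.895). Globin genes were below 0 and at most 27.1 CPM in any MPP3 library.

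Stem cell genes were divided as well. Of 35 stem cell identity genes 17 were above 0 and 18 below (median -0.02). Of 35 stem cell ageing genes, a list that holds Aldh1a1 and shares Selp, Vwf and Itgb3 with the platelet list, 19 were above 0 and 14 below (median 0.06), with 7 higher and 0 lower at an unadjusted p under 0.05 (1.68% and 2.92% of all genes). The median was 0.30 without WT 1 or without WT 2 and 0.02 without KO 1 or without WT 3. Clu, the chaperone clusterin, had 2.08, 0.99 and 1.46 CPM in MPP3 KO and 0.16, 0.50 and 0.36 CPM in MPP3 WT, low but clear of overlap (log2 2.14 ± 0.45, edgeR adjusted p = 0.495, DESeq2 adjusted p = 0.00279).

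Growth genes were slightly above 0, with values that turned on single libraries. Of 42 DNA replication genes 37 were above 0 (median 0.16), of 40 mitosis genes 31 (median 0.20) and of 81 ribosomal protein genes 65 (median 0.18). Rfc3, a subunit of the clamp loader, was clear above WT at 71.9, 80.0 and 84.8 CPM in MPP3 KO and 54.8, 61.4 and 70.2 CPM in MPP3 WT (log2 0.34 ± 0.14). Cdc20, the activator of the anaphase-promoting complex, had 97.4, 67.6 and 81.6 CPM in MPP3 KO and 64.9, 66.5 and 60.3 CPM in MPP3 WT (log2 0.36 ± 0.21). Without KO 1 the replication and mitosis medians were 0.07 and 0.00, and without KO 2 they were 0.31 and 0.35. Without WT 1 the ribosomal median was 0.05 and without WT 3 it was 0.35, and without the 3 libraries rich in immunoglobulin transcripts the replication, mitosis and ribosomal medians were -0.03, 0.00 and -0.09.

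Among interferon-stimulated genes 23 of 40 were above 0 (median 0.03, with -0.09 without WT 3 and 0.15 without WT 2). KO libraries lay clear above WT for 7 of the 40 and clear below for 0, against 5.01% and 5.62% of all genes. Ifitm3, a membrane protein that restricts virus entry, had 301, 324 and 367 CPM in MPP3 KO and 173, 243 and 256 CPM in MPP3 WT (log2 0.56 ± 0.17, edgeR adjusted p = 0.817). Irgm1, an interferon-induced GTPase, had 230, 200 and 219 CPM in MPP3 KO and 184, 199 and 170 CPM in MPP3 WT (log2 0.23 ± 0.11). Of 16 MHC class I genes 13 were above 0 (median 0.14), with H2-Q7 at log2 0.29 ± 0.11, and of 24 cholesterol synthesis genes 19 were (median 0.14, and 0.05 without KO 2), with the mevalonate kinase gene Mvk at log2 0.50 ± 0.20.

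Migration genes moved in both directions. Of 24 homing receptors and ligands 10 were above 0 and 14 below (median -0.15, and 0.12 without KO 2), with 4 clear below WT and 1 clear above (5.62% and 5.01% of all genes). Itgb7, the integrin beta subunit of gut homing, had 81.0, 51.0 and 69.9 CPM in MPP3 KO and 96.0, 89.2 and 116 CPM in MPP3 WT (log2 -0.58 ± 0.21, edgeR adjusted p = 0.988). S1pr3, a sphingosine-1-phosphate receptor, had 67.1, 57.1 and 66.4 CPM in MPP3 KO and 48.4, 41.1 and 40.4 CPM in MPP3 WT (log2 0.55 ± 0.27, edgeR adjusted p = 1). Of the 11 DOCK exchange factors 5 were above 0 and 6 below; Dock1, a partner of ELMO proteins in Rac activation, was at log2 0.50 ± 0.25 and Dock11, a Cdc42 exchange factor related to Dock10, at -0.19 ± 0.15.

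**Figure D5:**
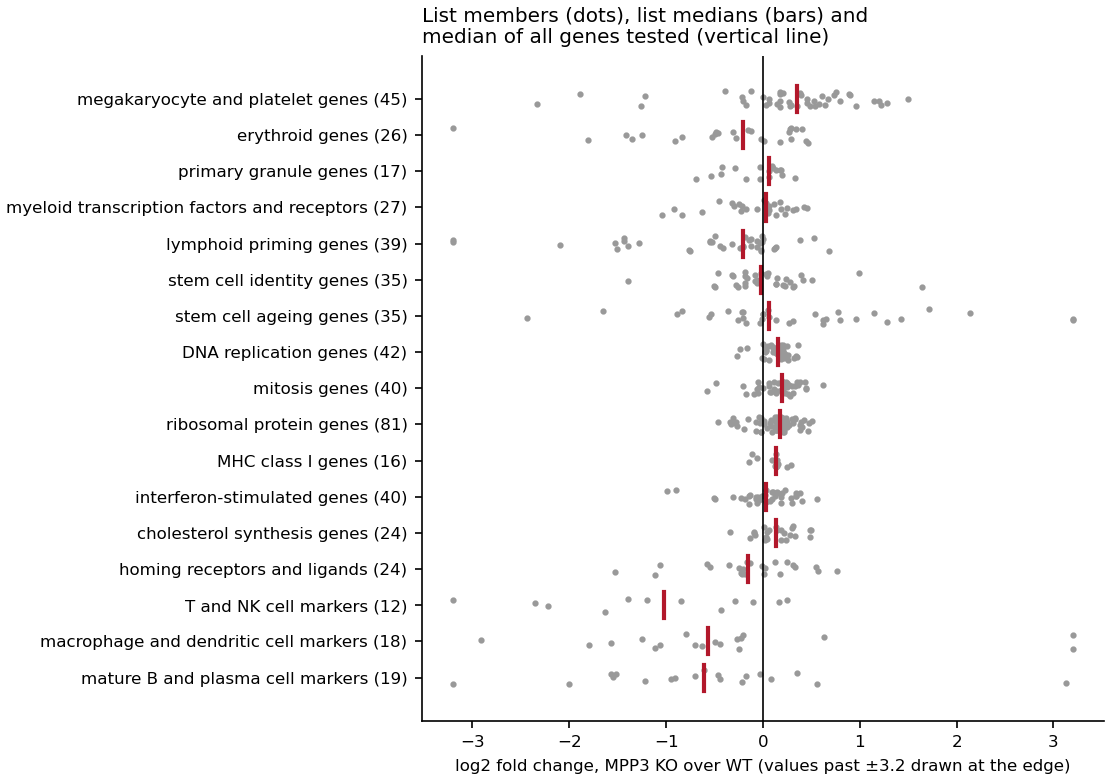
Log2 fold change of MPP3 KO over WT for the tested members of 17 gene lists (grey dots, number tested in brackets), with each list's median (red bar) and the median of all genes tested (vertical line). Medians run from -1.02 for T and NK cell markers to 0.35 for megakaryocyte and platelet genes, against 0.00 for all genes.

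Few genes passed edgeR in any population: 1 in MPP3, 10 in LT-HSC (0.0613% of the genes tested) and 2 in MPP4 (0.0123%). KO and WT libraries did not overlap for 10.6% of all genes in MPP3, 15.3% in LT-HSC and 7.98% in MPP4. In the test of the difference itself, no gene passed edgeR for MPP3 against LT-HSC or for MPP3 against MPP4; 602 and 527 did so at an unadjusted p under 0.05 (3.69% and 3.23%), and DESeq2 passed 4 and 11 (0.0245% and 0.0674%). For Wdfy1 they were 3.53 (MPP3), 3.55 (LT-HSC) and 3.70 (MPP4) on the log2 scale. Differences between them were -0.02 and -0.17 (edgeR adjusted p = 1 for each).

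Dock10 was lower in every KO population, with log2 fold changes of -0.70 (MPP3), -1.62 (LT-HSC) and -0.64 (MPP4). The difference between MPP3 and LT-HSC was 0.92 ± 0.17 (edgeR adjusted p = 0.388, DESeq2 adjusted p = 0.000688). Aldh1a1 was clear above WT in MPP3 and LT-HSC and not in MPP4, where it was near 0 in both genotypes (0.15, 0.60 and 0.32 CPM in MPP4 KO and 1.38, 0.10 and 0.80 CPM in MPP4 WT). Its effect in MPP3 exceeded that in MPP4 by 2.82 ± 0.68 (edgeR adjusted p = 1, DESeq2 adjusted p = 0.0128), and that of Clu by 2.43 ± 0.58 (edgeR adjusted p = 1, DESeq2 adjusted p = 0.0319). Clu also rose without overlap in LT-HSC, by log2 1.43 ± 0.31 (edgeR adjusted p = 0.138, DESeq2 adjusted p = 0.00265). LT-HSC held far more of this transcript: the KO mean was 121 CPM and the WT mean 44.9 CPM. In MPP3 these means were 1.51 and 0.341 CPM. The effect of Clu in MPP3 minus that in LT-HSC was 0.71 ± 0.55, which passed neither edgeR nor DESeq2. Aldh1a1 and Clu were named by their p in MPP3, and that choice alone favours a larger value in MPP3.

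Some genes past the threshold in LT-HSC had smaller values in MPP3. They were chosen by their p in LT-HSC, and that choice alone favours a larger value there. Ncf4, a subunit of the phagocyte oxidase, was at log2 -0.30 ± 0.16 in MPP3 and -1.09 in LT-HSC, and Anxa6, a calcium-dependent phospholipid-binding protein, -0.12 ± 0.12 in MPP3 and -0.74 in LT-HSC. Neither difference passed edgeR or DESeq2 (DESeq2 adjusted p = 0.451 and 0.345 in that order). The megakaryocyte and platelet list had medians of 0.35 in MPP3, 0.32 in LT-HSC and -0.03 in MPP4, and the lymphoid priming list -0.21, -0.23 and -0.17; no test of these medians was made.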

How the data were processed

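RNA of sorted cells was amplified with SMART-Seq v4 and made into libraries with Nextera XT, per the labels' protocols. Per the submitters' processing notes, reads were demultiplexed with bcl2fastq 2.17.1.14, mm10 was the genome and DESeq was used; the aligner, annotation, counter and strand setting were not given in the sources used here. The deposited table gives the authors' raw counts per gene, their normalised signal, and log2 fold changes with p-values of their own comparisons.

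From the counts, 16325 of 29437 genes were kept by filterByExpr, scaled by TMM and fitted with edgeR 4.0.16 (R 4.3.3) as 6 group means over all 18 libraries. The common dispersion was 0.164. Each SE was derived from the log2 fold change and its F statistic. Alternatives included DESeq2 1.42.0 and limma 3.58.1. Promoter sequences came from a RefSeq table and gene positions from the deposited table. Only the edgeR, DESeq2 and limma tests of MPP3 KO against WT were run on simulated counts. The simulated libraries were independent and had a smaller dispersion than these data, so they do not give the error rates here. The series' design text gives 3 mice per genotype, and equal numbers across populations were taken as 1 mouse only in the limma model. Every value column was matched to a sample.

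Named genes are Ikzf2, those past the threshold, the next 12 each way by p with a mean of at least 5 CPM and no overlap (predicted genes and immunoglobulin segments left out), up to 4 per list, at most 2 each way, those past the threshold in another population, and those within 12 Mb of Ikzf2 at an unadjusted p under 0.01. Some genes that the rule names are not reported here. The members and lists were chosen with earlier results of these data known.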

Additional observations from a re-analysis of the deposited data

Results flagged for a closer look

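Arl11, which encodes an ARF-like GTPase of macrophages, had its KO libraries on opposite sides of the WT libraries in 2 populations. In MPP3 it had 33.9, 35.7 and 34.6 CPM in KO and 32.3, 30.8 and 31.0 CPM in WT, all KO libraries above all WT libraries (log2 0.15 ± 0.23, edgeR adjusted p = 1), so that no change was shown there. In LT-HSC it had 2.12, 2.62 and 1.37 CPM in KO and 4.53, 9.96 and 5.48 CPM in WT, all KO libraries below (log2 -1.69, edgeR adjusted p = 0.0221). The difference of the KO effect, MPP3 minus LT-HSC, was 1.84 ± 0.35; it did not pass edgeR (adjusted p = 0.388) and passed DESeq2 (adjusted p = 0.0013). With 3 libraries per group, single libraries were not tested as outliers.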

How the results depend on the processing

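The count of genes called in MPP3 was 1 with RLE size factors, on the 6 MPP3 libraries alone, with at least 1 CPM in 3 libraries, and in the fit with the replicate number as a block (1 call, 1040 genes at an unadjusted p under 0.05). It was 35 with DESeq2, 2 with limma voom (Wdfy1, Dock10), 2 with no filter on low counts (the second an immunoglobulin segment) and 4 with the libraries numbered 2 and 3 alone, of which 3 besides Wdfy1 were copies of the ribosomal gene Rplp0 that were high in KO mice 2 and 3. Leaving out each MPP3 library gave 1 to 2 calls: besides Wdfy1, Sdc1 passed without KO 1, the circadian regulator Clock without KO 2 and the same immunoglobulin segment without WT 3. Without the 3 libraries rich in immunoglobulin transcripts, a setting chosen after seeing the data, the 1 call was Sdc1 and not Wdfy1 (log2 3.77, edgeR adjusted p = 0.0593). Counts of genes whose KO effect differed were 0 by edgeR and limma voom in each setting and by DESeq2 4 against LT-HSC and 11 against MPP4. For each MPP3 library, deviations of log2 CPM from the mean of its own group were taken. Between same-numbered KO and WT libraries these deviations correlated weakly (r = 0.0948, 0.0368 and 0.0881 across genes), each KO library best with its own number. The main test did not take the numbers as pairs, so an effect shared by libraries of 1 number stays in it. The block fit above gave 1040 genes at an unadjusted edgeR p under 0.05, against 750 in the main test. Without KO 2 the log2 fold changes of Mpo and Cd48 turned positive; leaving out each library gave -0.48 to 0.11 for Mpo and -0.14 to 0.11 for Cd48. Single genes with few reads, such as Rag1, lie near the counting floor and their folds depend on depth.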
